A study of Mus musculus with 24 samples.

Results

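The clustered protocadherins are a family of cell surface adhesion proteins whose genes lie side by side in 3 arrays, alpha, beta and gamma, on mouse chromosome 18. They were taken here as every row of the gene count table whose name is Pcdha, Pcdhac, Pcdhb, Pcdhga, Pcdhgb or Pcdhgc followed by a number. The rule gave 58 of 55487 genes. The alpha array held 14 of them, the beta array 22, and the gamma array 12 of the A type, 7 of the B type and 3 of the C type. The name Pcdha11 belongs to 2 of the 58 rows, so there are 57 names. The family was chosen because of the difference in Pcdhga10 between the WT and the AMPK KO cells. The levels in the 2 lines are therefore given below as a description with no test, and only the responses to the drugs were tested.

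Each gene of the alpha and gamma arrays has its own promoter and its own large variable exon, which encodes the extracellular part, and is spliced to short constant exons shared by the whole array. Beta genes are single exons with no constant part. The proteins bind the same isoform on a facing cell. In neurons each cell uses a small set of promoters, chosen with the help of the DNA-binding protein CTCF and the cohesin ring and kept or silenced by DNA methylation, and the resulting surface code lets branches of the same cell avoid each other. The C types (Pcdhac1, Pcdhac2, Pcdhgc3, Pcdhgc4 and Pcdhgc5) are less subject to such choice.

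RNA was sequenced from mouse embryonic fibroblasts (MEFs) of 2 genotypes, WT and AMPK KO, each under vehicle (DMSO), the AMPK activator MK-8722 or the MTOR inhibitor torin1. Each of the 6 groups had 4 libraries, so there were 24 in all. According to the study's methods, the AMPK KO MEFs lack both catalytic subunits of AMPK, encoded by Prkaa1 and Prkaa2. WT cells were at passages 12 to 15 and AMPK KO cells at passages 16 to 19, with 1 library of each passage in each group. Genotype, cell line and passage range cannot be told apart in a comparison of WT with AMPK KO. Nothing in the labels says that the 4 libraries of a group came from separate embryos, so p-values measure the spread between passages, which may be technical.

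The libraries held 26900240 to 34192685 estimated counts. Levels are given in CPM, counts relative to a library size scaled by the trimmed mean of M values, and between genes in TPM, which also accounts for transcript length. Counts over the whole Prkaa1 gene did not separate the lines, at 71.3 to 84.5 CPM in WT against 65.5 to 82.5 CPM in AMPK KO, and Prkaa2 was at 3.22 to 9.01 and 2.34 to 5.71 CPM, so gene-level counts did not check the genotype label. Of 12 fibroblast markers, 4 were lower in every AMPK KO library than in any WT library, among them Col1a2 (a collagen I chain, 900 to 3290 against 10.2 to 47.3 CPM) and Vim (3310 to 5240 against 1470 to 2760 CPM). Of 9 neural progenitor and glia markers, 3 were higher in every AMPK KO library, with Pax6 at 0.0317 to 0.219 CPM in WT against 33.3 to 46.0 CPM in AMPK KO and Sox2 at 0 to 0.0665 and 7.21 to 14.7 CPM. The summed level of these 9 genes was 161 to 217 TPM in WT and 213 to 286 TPM in AMPK KO, and that of the 12 fibroblast markers was 6620 to 10600 and 3360 to 5410 TPM. Among 11 neuron markers, Syp and Syt1 were higher and Stmn2 lower in every AMPK KO library, and the summed level was 72.4 to 133 TPM in WT and 80.4 to 123 TPM in AMPK KO. The summed levels of the 6 epithelial, 5 endothelial and 6 macrophage markers reached at most 6.09, 2.33 and 8.66 TPM in any library, and Adgre1, a macrophage marker, was at 0 in all 24. Of all genes that passed a filter on low counts, 15.8% were higher in every AMPK KO library and 12.4% in every WT library. Several of the markers above moved with the lines, as the protocadherins did, and their part in the protocadherin differences was not tested.

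Most of the summed TPM of the gamma array was assigned to Pcdhgc3, near its end. The lines differed in which other gamma genes they carried. Per length, Pcdhgc3, a C type that is widely expressed outside neurons, was the highest member in both lines, at 72.5 TPM ± 6.60 (SD, n = 12) in WT and 61.7 TPM ± 2.71 in AMPK KO. It made up 70.7% and 62.7% of the summed TPM of the gamma array. Transcripts of mostly constant exons, which all gamma genes share, held 20.6% of the gamma C counts in WT and 18.9% in AMPK KO. Such transcripts belong to Pcdhgc3 and Pcdhgc4, so the levels of both include reads that may stem from other gamma genes. In WT the next in order were Pcdhgb6 (10.6 TPM ± 2.10), Pcdhgc4 (7.52 TPM ± 2.17), Pcdhgb2 (3.26 TPM ± 0.496) and Pcdhga6 (2.88 TPM ± 0.612). Apart from Pcdhgc3, each of these overlapped in range with the next over the 12 libraries. Within every WT library Pcdhgc4 was nevertheless above Pcdhgb2, while the order of the other neighbours differed between libraries. In AMPK KO the order after Pcdhgc3 was Pcdhgb2 (9.06 TPM ± 1.02), Pcdhga10 (7.25 TPM ± 0.528), Pcdhgc4 (5.70 TPM ± 2.69), Pcdhga5 (3.82 TPM ± 0.720), Pcdhgc5 (3.65 TPM ± 0.375) and Pcdhga7 (3.24 TPM ± 0.393). These neighbours too overlapped in range, each with the next. Within every AMPK KO library Pcdhgb2 was nevertheless above Pcdhga10, while the order of the other neighbours differed between libraries.

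**Figure D1:**
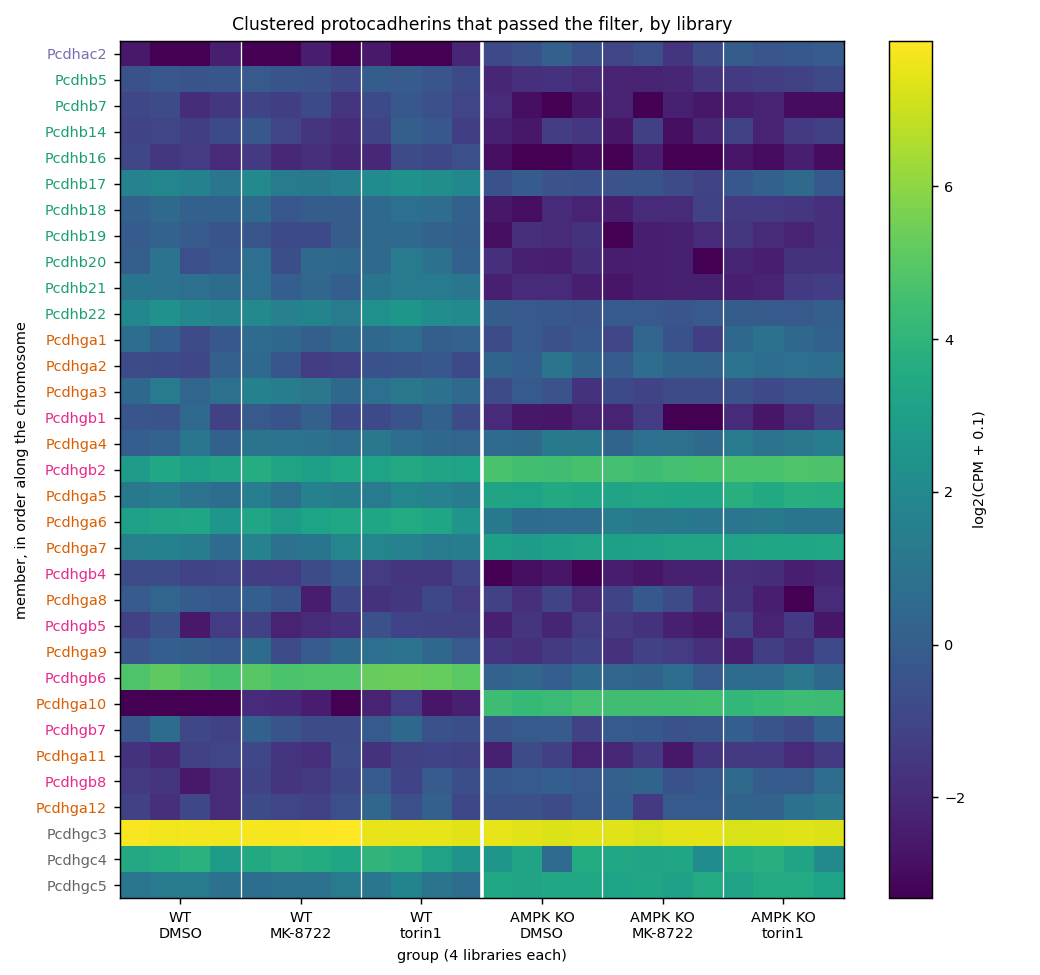
Level of the 33 members that passed the filter on low counts in each of 24 libraries, as log2(CPM + 0.1), with rows in order along the chromosome, names coloured by array and columns grouped by genotype and treatment. Pcdhgc3 is the brightest row in both lines, Pcdhgb6 is bright in the WT columns and Pcdhga10 in the AMPK KO columns.

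Of the 58 members, 33 passed the filter on low counts: 1 alpha gene, 10 beta genes and all 22 gamma genes. Of the remaining 25, Pcdhb2, Pcdhb9 and Pcdhb11 reached at most 15 counts in a library, 22 had at most 10 in every library, and 3 of those 22, Pcdha1, Pcdha2 and Pcdhb1, had none. Every AMPK KO library was above every WT library for 6 members, and every WT library above every AMPK KO library for 16. Over all 55487 genes, the lines did not overlap for 4.72% in the first direction and 3.59% in the second, 8.31% in all. Among the 15828 genes that passed the filter these shares were 15.8% and 12.4%, 28.2% in all. Since the family was chosen from this contrast, nothing is read from the count of members. In bulk RNA, fewer cells using a promoter and less RNA from each cell cannot be told apart.

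Pcdhga10 (ENSMUSG00000102222, GRCm38 chromosome 18, 37746993 to 37841873, plus strand) was the member for which the family was chosen. It had no count in any of the 4 WT DMSO libraries. In AMPK KO DMSO the 4 libraries held 21.1, 18.5, 20.1 and 22.97 CPM, which is 572 to 766 counts. Against a floor of 3 counts per WT library, the AMPK KO level under DMSO was at least 198-fold higher. Under MK-8722 the AMPK KO libraries held 22.03, 21.7, 21.7 and 22.5 CPM and the 4 WT libraries 9 counts in all, a ratio of 265 with an exact 95% counting interval of 139 to 580. Under torin1 the AMPK KO libraries held 17.4, 19.2, 21.3 and 20.9 CPM and the WT libraries 18 counts in all, a ratio of 136 with an interval of 85.9 to 230. These intervals cover counting error only. Within AMPK KO the mean level was 19.7, 19.8, 22.3 and 21.4 CPM at passages 16, 17, 18 and 19, and within WT no passage averaged above 0.147 CPM.

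Pcdhgb6 (ENSMUSG00000103088), the gene directly before Pcdhga10 in the array, had the opposite pattern. It stood at 28.1, 34.2, 29.2 and 25.1 CPM in WT DMSO and at 1.05, 1.197, 0.915 and 1.35 CPM in AMPK KO DMSO. The log2 difference under DMSO, AMPK KO minus WT, was -4.69 (SE 0.17), and over all 12 libraries a line the WT mean was 24.8-fold the AMPK KO mean. The libraries of the 2 lines did not overlap under any treatment.

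Among the gamma A genes, which share the A type of variable exon, 3 were higher in every AMPK KO library (Pcdhga5, Pcdhga7 and Pcdhga10) and 3 in every WT library (Pcdhga3, Pcdhga6 and Pcdhga9). Pcdhga5 was at 2.21, 2.56, 1.84 and 1.57 CPM in WT DMSO and 9.29, 8.90, 11.04 and 9.71 CPM in AMPK KO DMSO. Its log2 difference under DMSO was 2.26 (SE 0.15). Pcdhga7, 2 places further along the array, was at 2.88, 2.96, 2.52 and 1.41 CPM and 8.27, 7.31, 8.05 and 8.85 CPM, with a log2 difference of 1.74 (SE 0.18). Pcdhga6 lies between these 2 genes and went the other way, at 8.39, 9.29, 9.51 and 5.87 CPM in WT DMSO and 2.19, 1.46, 1.52 and 1.53 CPM in AMPK KO DMSO, a log2 difference of -2.30 (SE 0.20). Neighbouring genes thus differed between the lines in opposite directions.

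The other gamma A genes were less abundant, and 2 of them were higher in WT throughout. Pcdhga3 averaged 1.61, 2.19 and 1.70 CPM in WT under DMSO, MK-8722 and torin1 and 0.537, 0.466 and 0.546 CPM in AMPK KO, in that order of treatments, which is kept below. Pcdhga9 averaged 0.808, 1.02 and 1.37 CPM in WT and 0.272, 0.263 and 0.272 CPM in AMPK KO. The lines overlapped for the other six, of which Pcdhga2 and Pcdhga12 were higher on average in AMPK KO under each treatment. Pcdhga1 averaged 0.929, 1.204 and 1.19 CPM in WT and 0.650, 0.631 and 1.32 CPM in AMPK KO. Pcdhga2 averaged 0.593, 0.674 and 0.625 CPM in WT and 1.26, 1.15 and 1.65 CPM in AMPK KO. The direction differed between treatments for Pcdhga4, whose means were 1.26, 1.76 and 1.55 CPM against 1.80, 1.45 and 2.20 CPM. Pcdhga8 and Pcdhga11 were lower on average in AMPK KO under each treatment. Pcdhga8 was at 0.907, 0.526 and 0.300 CPM in WT and 0.275, 0.454 and 0.114 CPM in AMPK KO. Pcdhga11, with 2 to 16 counts per library, was at 0.281, 0.344 and 0.326 CPM and 0.268, 0.177 and 0.243 CPM. Pcdhga12, the last of the A genes along the chromosome, averaged 0.281, 0.457 and 0.797 CPM in WT and 0.610, 0.700 and 1.52 CPM in AMPK KO.

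Of the 7 gamma B genes, 1 was higher in every AMPK KO library and 3 in every WT library. Pcdhgb2 was high in both lines, at 7.37, 10.3, 7.99 and 9.29 CPM in WT DMSO and 25.9, 22.5, 22.02 and 24.7 CPM in AMPK KO DMSO, with a log2 difference of 1.44 (SE 0.11). The 3 that were higher in WT were Pcdhgb6, described above, Pcdhgb1 and Pcdhgb4. Pcdhgb1 averaged 0.750, 0.721 and 0.671 CPM in WT and 0.102, 0.105 and 0.175 CPM in AMPK KO. Pcdhgb4 averaged 0.452, 0.470 and 0.291 CPM in WT and 0.0233, 0.0856 and 0.144 CPM in AMPK KO. The lines overlapped for the remaining gamma B genes. Pcdhgb5 was at 0.323, 0.204 and 0.417 CPM in WT and 0.187, 0.160 and 0.197 CPM in AMPK KO, and Pcdhgb7 at 0.735, 0.670 and 0.815 CPM and 0.670, 0.702 and 0.782 CPM. Pcdhgb8, annotated as a polymorphic pseudogene, averaged 0.182, 0.329 and 0.646 CPM in WT and 0.814, 0.861 and 1.14 CPM in AMPK KO.

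**Figure D2:**
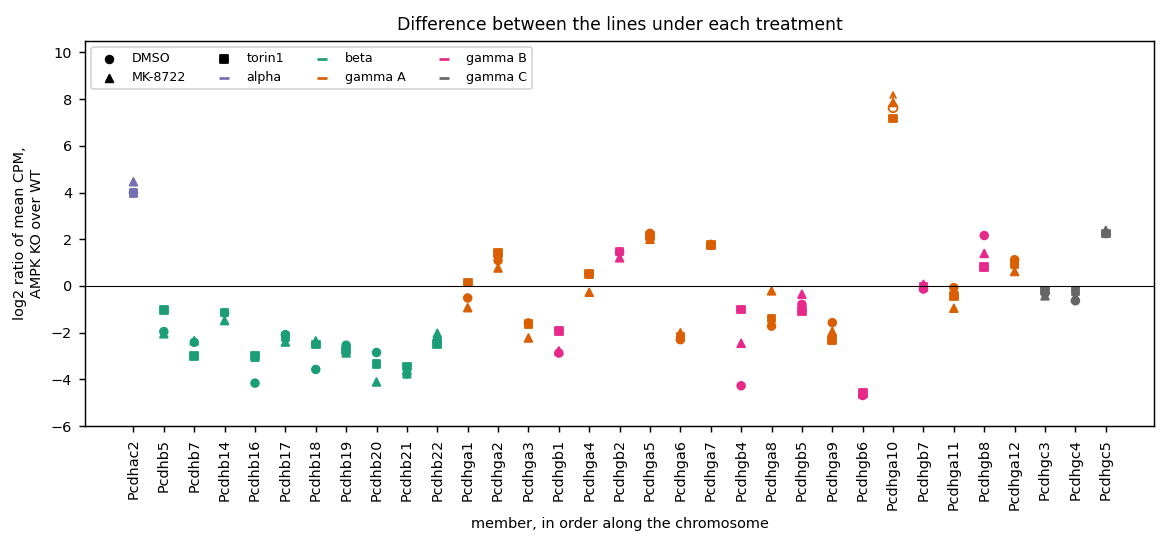
Log2 ratio of mean CPM, AMPK KO over WT, for the 33 members that passed the filter, in order along the chromosome, with 1 symbol for each treatment and 1 colour for each array. The open circle with an arrow is the lower bound for Pcdhga10 under DMSO, the gamma genes lie on both sides of 0, and the 10 beta genes lie below it.

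Together the 19 gamma A and gamma B genes differed in make-up between the lines. In WT, Pcdhgb6 held 48.4% ± 3.24 (SD, n = 12) of their summed TPM, Pcdhgb2 15.0% ± 1.88 and Pcdhga6 13.2% ± 1.81. In AMPK KO, Pcdhgb2 held 33% ± 1.45, Pcdhga10 26.6% ± 2.68, Pcdhga5 13.8% ± 1.24 and Pcdhga7 11.8% ± 0.512, while Pcdhgb6 held 1.65% ± 0.362 and Pcdhga6 2.52% ± 0.416. Over the 4 passages and 3 treatments of a line, Pcdhgb6 ranged from 42.8% to 53.7% in WT, and Pcdhga10 from 21.2% to 29.4% in AMPK KO. These ranges and SDs pool the treatments, between which the shares differed. Pcdhga10 held 21.2% to 24.4% in the AMPK KO torin1 libraries and 26.6% to 29.4% in the other AMPK KO libraries. Pcdhgb6 held 49.2% to 53.7% in the WT torin1 libraries and 42.8% to 48.9% in the other WT libraries. A change of share with treatment was not tested. The 3 leading genes held 76.6% of the mean summed TPM in WT and 73.2% in AMPK KO.

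**Figure D3:**
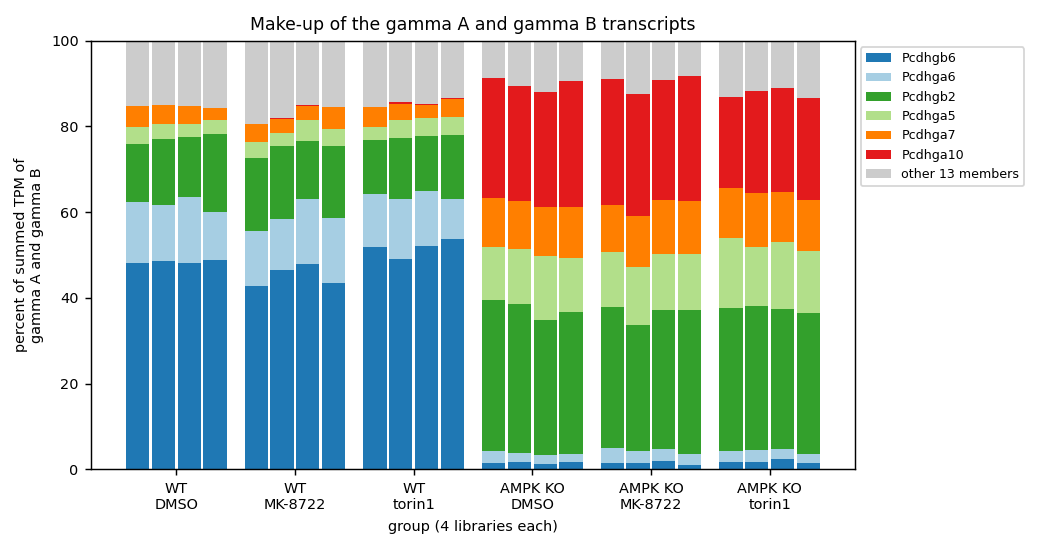
Percent of the summed TPM of the 19 gamma A and gamma B genes held by each of 6 members and by the other 13, with 1 bar for each library. Pcdhgb6 holds 42.8% to 53.7% of every WT bar and Pcdhga10 21.2% to 29.4% of every AMPK KO bar.

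Of the 3 gamma C genes, Pcdhgc5 alone separated the lines. It was at 2.00, 2.27, 2.48 and 1.76 CPM in WT DMSO and 10.1, 9.32, 10.52 and 10.3 CPM in AMPK KO DMSO, a log2 difference of 2.24 (SE 0.17). Pcdhgc3 was at 223, 203, 210 and 204 CPM and 177, 171, 158 and 170 CPM, a log2 difference of -0.31 (SE 0.05), and the lines did not overlap under DMSO but did over all treatments. Pcdhgc4, which interneurons need to survive in development, was at 10.8, 12.2, 14.3 and 7.34 CPM in WT DMSO and 6.02, 9.45, 1.40 and 11.9 CPM in AMPK KO DMSO. It averaged 11.6 and 11.2 CPM in WT and 8.42 and 9.65 CPM in AMPK KO under MK-8722 and torin1, with an SD of up to 4.91. Most of the Pcdhgc4 counts were assigned to a transcript of 2272 bases of which 93.3% are constant exons shared with every gamma gene, and this transcript received 0 to 355 counts in AMPK KO. The transcript of Pcdhgc4 with its variable exon received 18.0 to 71.6 counts in WT and 26.7 to 82.8 counts in AMPK KO, so the level of Pcdhgc4 is uncertain.

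The beta array was lower in AMPK KO throughout. Every one of the 21 beta genes with a count had a lower mean in AMPK KO than in WT, and for 10 of them the lines did not overlap. Over all genes 3.59% were higher in every WT library, and 12.4% among those that passed the filter. These 10 beta genes include Pcdhb9 and Pcdhb11, which did not pass the filter. For Pcdhb9 the lowest WT library was at 0.0665 CPM and the highest AMPK KO library at 0.0654 CPM. As above, nothing is read from the count. Pcdhb17 was at 3.09, 3.51, 2.99 and 2.01 CPM in WT DMSO and 0.621, 0.874, 0.640 and 0.5997 CPM in AMPK KO DMSO, and Pcdhb22, the last beta gene, at 3.72, 5.04, 3.64 and 3.107 CPM and 0.883, 0.776, 0.732 and 0.690 CPM. Their log2 differences under DMSO were -2.08 (SE 0.24) and -2.33 (SE 0.18). These were the most abundant beta genes of both lines.

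In WT the next beta genes in CPM, which does not account for length, were 4 that lie beside them in the array. Pcdhb21 averaged 1.71, 1.16 and 2.15 CPM in WT and 0.126, 0.0857 and 0.197 CPM in AMPK KO. Pcdhb20 averaged 1.02, 1.195 and 1.61 CPM in WT and 0.141, 0.0690 and 0.159 CPM in AMPK KO, and Pcdhb19 0.856, 0.636 and 1.19 CPM and 0.147, 0.0870 and 0.175 CPM. Pcdhb18 averaged 1.10, 0.964 and 1.37 CPM in WT and 0.0925, 0.189 and 0.242 CPM in AMPK KO. None of these 4 genes overlapped between lines, and each lies in the stretch from Pcdhb16 to Pcdhb22 in which no gene overlapped.

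In WT the remaining beta genes that passed the filter were lower still in CPM, while in AMPK KO Pcdhb5 and Pcdhb14 were above Pcdhb20 and Pcdhb21. The order differed in TPM. Of the summed beta TPM, Pcdhb5 held 5.33% in WT, above Pcdhb19 at 3.35%. In AMPK KO Pcdhb5 held 9.16%, Pcdhb20 5.04%, Pcdhb21 4.13% and Pcdhb14 3.19%. Pcdhb5 averaged 0.667, 0.614 and 0.722 CPM in WT and 0.172, 0.148 and 0.356 CPM in AMPK KO, and Pcdhb14 0.396, 0.386 and 0.602 CPM and 0.177, 0.138 and 0.274 CPM, both with overlap. Pcdhb7 averaged 0.341, 0.355 and 0.544 CPM in WT and 0.0640, 0.0699 and 0.0681 CPM in AMPK KO. Pcdhb16 averaged 0.281, 0.187 and 0.418 CPM in WT and 0.0157, 0.0226 and 0.0530 CPM in AMPK KO. At 0 to 5 counts in each AMPK KO library, the levels of Pcdhb7 and Pcdhb16 there are close to the floor of detection.

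The alpha array was almost silent in both lines. The 14 genes summed to 2 to 16 counts per library in WT and 9 to 37 in AMPK KO. Only Pcdhac2, the C type at the end of the array (chromosome 18, 37143503 to 37187657), passed the filter. It had 0 to 4 counts per library in WT against 7 to 32 in AMPK KO, and averaged 0.0411, 0.0196 and 0.0501 CPM in WT and 0.654, 0.432 and 0.789 CPM in AMPK KO. None of the other 13 reached more than 8.47 estimated counts in any library.

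The sums over members differed in both directions between the lines. Gamma C summed to 218 CPM ± 22.5 in WT against 183 CPM ± 10.0 in AMPK KO (SD, n = 12), a log2 ratio of -0.25. Gamma B summed to 43.9 CPM ± 6.38 and 27.9 CPM ± 2.40, a log2 ratio of -0.66, and gamma A to 21.5 CPM ± 3.63 and 48.6 CPM ± 3.36, a log2 ratio of 1.18. Without Pcdhga10 the gamma A log2 ratio was 0.38, and the 2 lines then overlapped. The whole gamma array summed to 283 CPM ± 20.7 in WT against 259 CPM ± 9.71 in AMPK KO. The beta sum was 15.6 CPM ± 4.27 against 2.87 CPM ± 0.676, a log2 ratio of -2.45, and the alpha sum 0.243 CPM ± 0.118 against 0.740 CPM ± 0.261, a log2 ratio of 1.61. The beta, gamma A and gamma B sums did not overlap between the lines.

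**Figure D4:**
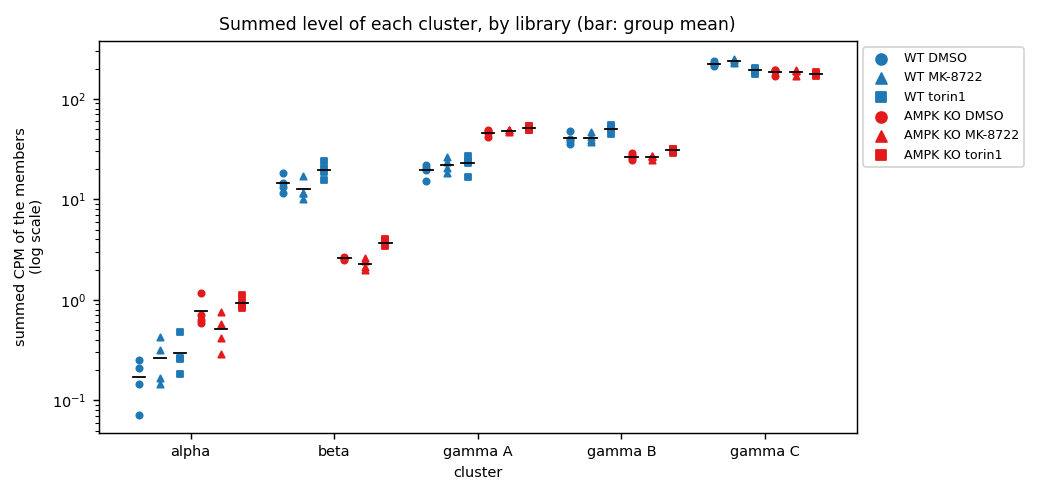
Summed CPM of the members of each array or type in each library (log scale), with 1 column for each group and a bar at the group mean. The beta sum lies at 10.2 to 24 CPM in the WT libraries and 2.00 to 3.99 CPM in the AMPK KO libraries, while the gamma C sums overlap.

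Because gamma genes share their constant exons, the transcripts behind the counts were examined. A typical gamma transcript has 2119 constant bases, 44.8% of the 4732 bases of the Pcdhga10 transcript, and a 52-base read starting in them fits every gamma gene. Of the 52-base windows of the Pcdhga10 transcript, 55.7% occur in no other transcript on the same strand, and for Pcdhgb6 this share was 49.0%. Beta genes share little with each other, and from 89.0% to 98.3% of the windows of the beta transcripts with more than 5 counts on average were their own. A few transcripts hold the variable exon with no constant bases. That of Pcdhga7 received 0 to 8.06 counts in WT against 12.2 to 31.2 in AMPK KO, and that of Pcdhgb2 0 to 30.9 against 10.8 to 58.7, so the lines were apart for the former and overlapped for the latter. The count of members without overlap was repeated without the alpha and gamma transcripts that hold the variable exon alone or mostly constant bases. Beta transcripts were kept whole. It was then 22 of the 58 members. The gamma transcripts kept still hold the shared constant exons. They held 98.3% of the gamma A counts in WT and 98.0% in AMPK KO, and 99.0% and 95.1% of the gamma B counts. The count could thus hardly change, and nothing is read from it about reads of shared exons.

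Other genes annotated inside the arrays were looked at after their values were seen. 3222401L13Rik, a long noncoding RNA on the plus strand that ends just before Pcdhga1 (37655451 to 37661742), had 0 to 3 counts per WT library and 72 to 117 per AMPK KO library. Gm26672, on the minus strand over Pcdhga10, had no count in WT and 1 to 5 per library in AMPK KO, and 54.7% of the windows of the Pcdhga10 transcript also occur on its opposite strand in other transcripts. Gm10544, on the minus strand near the end of the alpha array, had no count in WT and 5 to 23 per library in AMPK KO. BC037039, on the minus strand over Pcdhgc3, was at 23 to 37 and 18 to 36 counts. Whether the counting used strand is not given in the sources used here, so reads of Pcdhga10 and Gm26672, or of Pcdhgc3 and BC037039, may not have been told apart.

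Of 11 genes listed as lying next to or between the arrays, 3 were higher in every WT library and none in every AMPK KO library. These were Hars2 (27.3 to 30.7 CPM in WT against 20.4 to 23.5 CPM in AMPK KO), Diaph1 (111 to 143 and 87.8 to 96.8 CPM) and Hdac3 (107 to 125 and 83.7 to 93.3 CPM). Taf7, between the beta and gamma arrays, overlapped at 4.22 to 6.44 and 3.53 to 4.76 CPM. The log2 ratios of the former were -0.42, -0.52 and -0.43. Rell2 had a log2 ratio of -1.18 and Fchsd1 of -0.56, both with an overlap of the lines. Of all genes that passed the filter, 12.4% were higher in every WT library and 15.8% in every AMPK KO library.

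The drug comparisons asked whether MK-8722 or torin1 changed these genes against DMSO within each line. MK-8722 changed few. A gene was called where its Benjamini-Hochberg adjusted p in edgeR's quasi-likelihood test was below 0.05 and its change was 1.2-fold or more. In WT, 1 of the 33 members tested was called higher and 1 lower, where 15.7% of all genes tested were called (10% higher and 5.66% lower). Pcdhb21 was at 1.97, 1.83, 1.62 and 1.44 CPM under DMSO and 1.60, 0.914, 1.22 and 0.931 CPM under MK-8722. It fell by 0.56 on the log2 scale (SE 0.21, adjusted p = 0.049), with MK-8722 lower at 4 of 4 passages and an overlap of the groups, and 6 of 8 fits that left out 1 library gave an adjusted p above the threshold, up to 0.15. The member called higher was Pcdhga10, on 9 counts in the 4 MK-8722 libraries against none in the 4 DMSO libraries. It passed the filter through its level in AMPK KO, did not pass it when only the compared WT libraries were fitted, and no response is read from its call. In AMPK KO no member was called with edgeR, 2 of the 33 had an unadjusted p under 0.05, 0 were called with DESeq2, and of all genes 1.56% were called (0.866% higher and 0.695% lower) and 16.5% had such an unadjusted p. When only the libraries compared were fitted, no member was called in WT, and leaving out 1 library in turn gave 1 to 3 (1 without WT DMSO replicate 1 or 2 or WT MK-8722 replicate 4, and 3 without WT MK-8722 replicate 1). A fit with a block for passage called 3 members in WT and 1 in AMPK KO. Median log2 fold changes of the 33 were 0.06 in WT and -0.02 in AMPK KO, beside -0.002 and 0.002 over all genes tested.

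Torin1 raised several gamma genes in each line and 1 beta gene in WT. In WT 7 members were called higher, or 6 without Pcdhga10, and 1 lower, where 47.6% of all genes tested were called (26.6% higher and 21.1% lower). In AMPK KO 7 were called higher and none lower, where 43.5% of all genes were called (25.9% higher and 17.6% lower). Of the 7 in AMPK KO, Pcdhb5, Pcdhb18 and Pcdhgb4 passed the filter through their level in WT. Both counts of raised members, 7 of 33, were no larger than the share over all genes. The median log2 fold change of the 33 was 0.31 in WT and 0.28 in AMPK KO, beside 0.04 and 0.06 over all genes. Without WT DMSO replicate 4 the WT count was 5, and with only the AMPK KO DMSO and torin1 libraries in the fit the AMPK KO count was 3. With a block for passage in the fit the counts of members called were larger in both lines.

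Pcdhga12, Pcdhgb6 and Pcdhga5 were called higher with torin1 in both lines. Pcdhga12 went from 0.351, 0.183, 0.432 and 0.157 CPM to 1.196, 0.571, 0.974 and 0.448 CPM in WT, and from 0.621, 0.582, 0.518 and 0.720 CPM to 1.14, 1.11, 1.77 and 2.07 CPM in AMPK KO. The groups did not overlap in either line, and the log2 fold changes were 1.5 (SE 0.41, adjusted p = 0.0020) and 1.31 (SE 0.33, adjusted p = 0.0013). In WT the change of Pcdhga12 rests on few counts, 5 to 12 per library under DMSO and 14 to 33 under torin1. Pcdhgb6 reached 39.8, 40.7, 38.5 and 32.9 CPM in WT with torin1 and 1.44, 1.44, 2.10 and 1.28 CPM in AMPK KO. Its log2 fold changes were 0.38 (SE 0.10, adjusted p = 0.0025) and 0.47 (SE 0.20, adjusted p = 0.043), and 6 of 8 fits of AMPK KO without 1 library gave an adjusted p above the threshold, up to 0.24. Pcdhga5 reached 2.39, 3.46, 3.04 and 2.59 CPM in WT and 13.1, 11.03, 13.4 and 12.5 CPM in AMPK KO. It rose by 0.50 (SE 0.16, adjusted p = 0.0089) and 0.36 (SE 0.12, adjusted p = 0.015) on the log2 scale. Its call was lost without 1 library in 1 of 8 fits in WT and 4 of 8 in AMPK KO, with adjusted p up to 0.053 and 0.065. All 3 genes were higher with torin1 at 4 of 4 passages in each line.

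In WT and not in AMPK KO torin1 passed the threshold for Pcdhgb8, Pcdhga9, Pcdhb17, Pcdhga10 and Pcdhga8, of which the interaction test called Pcdhga10 alone. Pcdhgb8 went from 0.281, 0.219, 0.0720 and 0.157 CPM to 0.834, 0.381, 0.827 and 0.543 CPM, a log2 fold change of 1.80 (SE 0.39, adjusted p = 0.00015) with no overlap. It had 2 to 8 counts per WT DMSO library and 12 to 28 per WT torin1 library, so the fold change in WT rests on few counts. The change in AMPK KO was 0.48 (SE 0.27, adjusted p = 0.13), and the difference between lines did not pass the test (adjusted p = 0.067). Pcdhb17 reached 4.204, 5.33, 4.55 and 3.64 CPM, a log2 fold change of 0.62 (SE 0.20, adjusted p = 0.011), which gave an adjusted p of 0.057 without WT DMSO replicate 4. Pcdhga9 reached 1.60, 1.81, 1.30 and 0.767 CPM, a log2 fold change of 0.76 (SE 0.32, adjusted p = 0.043), lost in 7 of 8 fits without 1 library, with adjusted p up to 0.15. Pcdhga8 was the single member called lower, from 0.842, 1.17, 0.864 and 0.753 CPM to 0.217, 0.254, 0.443 and 0.288 CPM, by 1.56 on the log2 scale (SE 0.49, adjusted p = 0.0064). In AMPK KO, where it was not called, Pcdhga8 was also lower at 4 of 4 passages. It was there at 0.15 to 0.396 CPM under DMSO and 0 to 0.215 CPM under torin1, with overlap. Of the others, Pcdhb17 was higher with torin1 at 4 of 4 passages in AMPK KO and Pcdhga9 at 2 of 4. Pcdhga10 was called on 18 counts in the 4 torin1 libraries against none, with the same limit as under MK-8722, and no response is read from it. In WT torin1 and MK-8722 differed by a ratio of 1.75 with a counting interval of 0.746 to 4.42.

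In AMPK KO and not in WT torin1 passed the threshold for Pcdhga1, Pcdhb5, Pcdhb18 and Pcdhgb4, of which the interaction test called Pcdhgb4 alone. Pcdhb5, Pcdhb18 and Pcdhgb4 passed the filter through their level in WT and did not pass it when only the AMPK KO libraries compared were fitted. No response is read from the calls of these genes. The groups did not overlap for any of the 4. Pcdhga1, the first gene of the gamma array, went from 0.490, 0.809, 0.579 and 0.720 CPM to 1.29, 1.71, 1.26 and 1.01 CPM, a log2 fold change of 1.02 (SE 0.32, adjusted p = 0.0092). Pcdhb5 went from 0.131, 0.194, 0.214 and 0.150 CPM to 0.276, 0.330, 0.360 and 0.458 CPM, a log2 fold change of 1.03 (SE 0.30, adjusted p = 0.0081) that gave an adjusted p of 0.056 without AMPK KO torin1 replicate 4. Pcdhb18 had 1 to 5 counts per library under DMSO and 6 to 9 under torin1, with a log2 fold change of 1.33 (SE 0.46, adjusted p = 0.011). Pcdhgb4 had 3 counts in all under DMSO and 19 under torin1, a ratio of 6.12 with an exact 95% counting interval of 1.80 to 32.3 (adjusted p = 0.0020).

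**Figure D5:**
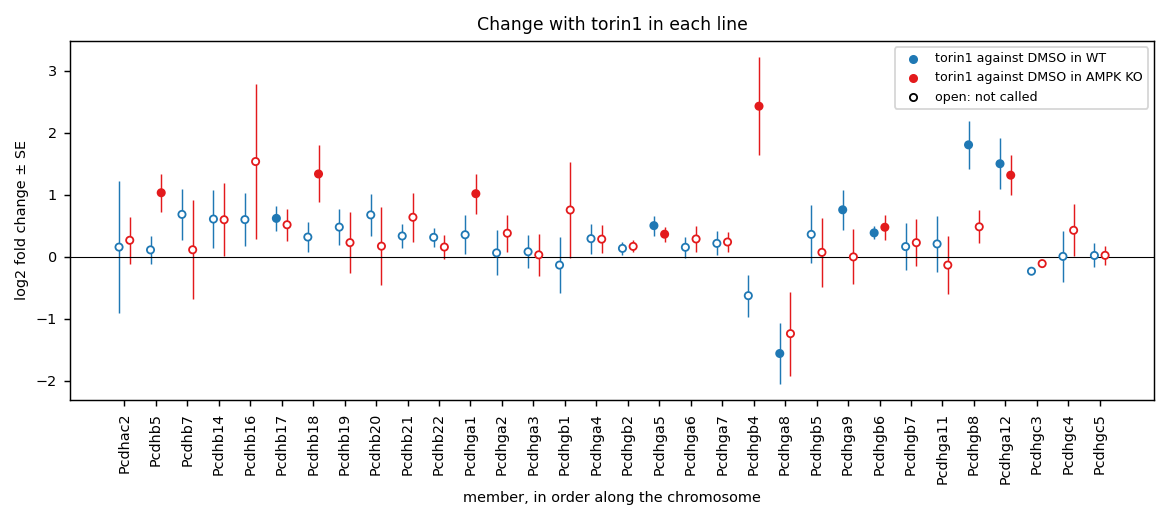
Log2 fold change ± SE from DMSO to torin1, separately for WT and AMPK KO cells, for 32 members in order along the chromosome, without Pcdhga10, which has no count in WT DMSO. Filled points passed the threshold: Pcdhga12, Pcdhgb6 and Pcdhga5 in both lines, and Pcdhga8 alone below 0.

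Of the abundant members, Pcdhgc3, Pcdhgc5, Pcdhgb2, Pcdhga6 and Pcdhga7 were not called with torin1 in either line. Pcdhgc3 was at 182, 183, 178 and 171 CPM in WT with torin1, below all 4 DMSO libraries, but its log2 fold change of -0.24 (SE 0.05, adjusted p = 0.00021) was under the fold threshold. In AMPK KO its change was -0.11 (SE 0.05, adjusted p = 0.054). Log2 fold changes of Pcdhgc5 were 0.02 in both lines with torin1, with SEs of 0.19 and 0.15, and those of Pcdhgb2 were 0.13 (SE 0.11) and 0.17 (SE 0.10). For Pcdhga6 the log2 fold changes were 0.15 (SE 0.17) and 0.29 (SE 0.22). Pcdhga7 gave 0.21 (SE 0.19) and 0.24 (SE 0.16).

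The interaction of drug and genotype was called for 1 member with MK-8722, where 12.8% of all genes were called (5.12% higher and 7.66% lower in AMPK KO), and for 2 with torin1, where 7.07% were (4.15% higher and 2.92% lower). With a block for passage in the fit, more members were called with each drug. Pcdhga10 was called with both drugs, on 0 counts in WT DMSO in a gene that passed the filter through AMPK KO, and no difference in response is read from it. Pcdhgb4, which has 0 to 6 counts per AMPK KO library under DMSO and torin1, was called with torin1, with a log2 difference of 3.05 between the lines (SE 0.86, adjusted p = 0.0078). In WT it went from 0.491, 0.512, 0.396 and 0.408 CPM to 0.290, 0.222, 0.236 and 0.416 CPM, and in AMPK KO from 0, 0.0323, 0.0609 and 0 CPM to 0.184, 0.180, 0.0902 and 0.122 CPM.

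Related gene lists were counted beside the family. For comparison with each list, 15.8% of all genes that passed the filter were higher in every AMPK KO library and 12.4% in every WT library. Of 24 genes listed for their part in protocadherin promoter choice and silencing, 2 were higher in every AMPK KO library and 3 in every WT library. Tet1, a methylcytosine dioxygenase, was at 0.365 to 1.24 CPM in WT against 3.32 to 5.70 CPM in AMPK KO, and Nipbl, which loads cohesin, at 130 to 157 and 171 to 230 CPM. Stag1, a cohesin subunit, Wapl, which releases cohesin, and Smchd1, a repressor of the arrays, were lower in AMPK KO, with log2 ratios of -0.76, -0.42 and -0.29. Torin1 raised 9 and lowered 2 of the 24 in WT and raised 11 and lowered 1 in AMPK KO, where 26.6% and 21.1% of all genes were called higher and lower in WT and 25.9% and 17.6% in AMPK KO. Among those called, Dnmt1 rose most in WT (log2 fold change 0.44, SE 0.04, adjusted p = 3.7e-10) and Stag2 most in AMPK KO (0.50, SE 0.05, adjusted p = 2.1e-09), while Tet3 fell by 0.56 (SE 0.07, adjusted p = 1.4e-07) and 0.60 (SE 0.07, adjusted p = 6.8e-08) on the log2 scale. Ctcf itself did not separate the lines, with a log2 ratio of 0.08.

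Of 19 genes listed for processing of and signalling by protocadherins, 1 was higher in every AMPK KO library and 3 in every WT library. Adam10, the protease that sheds the extracellular part, was at 139 to 177 CPM in WT against 97.4 to 111 CPM in AMPK KO. Torin1 raised 3 and lowered 6 of the 19 in WT and raised 7 and lowered 4 in AMPK KO, beside the same shares over all genes. Psen2, a catalytic subunit of gamma-secretase, rose by 0.69 (SE 0.08, adjusted p = 1.2e-07) in WT, and Ptk2, the focal adhesion kinase that gamma protocadherins inhibit, fell by 0.58 (SE 0.04, adjusted p = 6.1e-12) on the log2 scale. MK-8722 lowered Wasf1, of the actin-regulating WAVE complex, by a log2 fold change of -0.62 (SE 0.05, adjusted p = 6.9e-10) in WT.

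Of 12 protocadherins outside the arrays, Pcdh17 and Pcdh1 were higher in every AMPK KO library and Pcdh19 and Pcdh9 in every WT library. Pcdh19 was at 140 to 192 CPM in WT against 43.4 to 58.0 CPM in AMPK KO. Torin1 raised 1 and lowered 1 of the 8 tested in WT, Pcdh1 (0.91, SE 0.22, adjusted p = 0.00074) and Pcdh10 (-0.69, SE 0.25, adjusted p = 0.018), and lowered 4 and raised none in AMPK KO. Of 12 other cadherins, 3 were higher in every AMPK KO library and 4 in every WT library, with Cdh6 at 0 to 0.109 CPM in WT against 59.9 to 110 CPM in AMPK KO and Cdh3 at 88.2 to 159 and 0.869 to 2.39 CPM.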

How the data were processed

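Poly(A) RNA of 24 MEF libraries was sequenced as paired reads of 52 bases. Per the study's methods and the submitters' processing notes, the authors aligned reads with STAR to GRCm38 and quantified them with Salmon. They deposited estimated counts per gene in 1 table, and for each library estimated counts, lengths and TPM per transcript. Estimated counts were rounded to whole numbers and filtered with filterByExpr, which left 15828 genes, and tested with edgeR 4.0.16 (quasi-likelihood, TMM scaling, 6 group means over all 24 libraries) with Benjamini-Hochberg adjustment over all genes. Genes below 0.05 in adjusted p and changed 1.2-fold or more were called. CPM are counts divided by TMM-scaled library size. TPM per gene was summed over its transcripts from the deposited TPM values. Coordinates, strands and shared exons came from a GENCODE annotation of GRCm38, in which all 88 member transcripts had the length given in the files.

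The members and gene lists were chosen with earlier results of these data known. Every member that passed the filter is named. Members called in a drug comparison are given with log2 fold change, SE and adjusted p, and of each list the counts and at most a few called genes. SE is not given for Pcdhga10, which has no count in 1 group. Fits were tested on simulated data. Alternatives were other scaling, filters and tools (DESeq2 1.42.0), TPM, transcript classes, blocks and leaving out each library. Depth was 26900240 to 34192685 counts per library. The floor of 3 counts averaged 0.104 CPM over the WT DMSO libraries, and intervals cover counting error only.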

Additional observations from a re-analysis of the deposited data

Results flagged for a closer look

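In 9 of 132 groups of 4 libraries examined (members with a mean of at least 1 CPM in any group), the highest or lowest library stood apart from the other three by more than the 95% critical value of Dixon's ratio of gap to range. Chance gives about 1 in 20 groups. High libraries were AMPK KO DMSO replicate 2 for Pcdhb17 (0.874 CPM, others 0.6 to 0.640), WT DMSO replicate 2 for Pcdhb18 (1.39, others 0.972 to 1.04), WT DMSO replicate 4 for Pcdhga2 (0.973, others 0.432 to 0.491), WT DMSO replicate 3 for Pcdhga4 (2.05, others 0.912 to 1.06) and WT torin1 replicate 2 for Pcdhgb2 (11 CPM, others 9.05 to 9.18). Pcdhga6 was high in AMPK KO DMSO replicate 1 (2.19, others 1.46 to 1.53) and AMPK KO torin1 replicate 2 (2.22, others 1.95 to 2.00). Low libraries were AMPK KO MK-8722 replicate 4 for Pcdhb20 (0, others 0.0888 to 0.0968) and AMPK KO torin1 replicate 2 for Pcdhga3 (0.450, others 0.571 to 0.583).

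The interaction test called the responses of Pcdhga10 to MK-8722 (adjusted p = 0.016) and torin1 (adjusted p = 0.0055) and of Pcdhgb4 to torin1 (log2 difference 3.05, adjusted p = 0.0078). Pcdhga10 has no count in WT DMSO and passed the filter on low counts through AMPK KO, and Pcdhgb4 has 3 counts in all in AMPK KO DMSO and passed it through WT, so both rest on a group near 0.

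Genes of the locus outside the family had signal in AMPK KO above every WT library: 3222401L13Rik averaged 2.81 CPM in AMPK KO and 0.0357 CPM in WT, Gm10544 0.494 CPM and Gm26672 0.0893 CPM, the last 2 with no count in WT.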

How the results depend on the processing

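The count of members called with MK-8722 in WT, 2, was 1 with a fold change of at least 1.5, library size alone as scaling, no filter, counts not rounded, a transcript length offset or the DESeq2 test, and 0 with only the compared libraries fitted. A filter of at least 10 counts in every library, which leaves fewer members to test, gave 0 with MK-8722 in WT, 4 of 8 with torin1 in WT, 3 of 7 with torin1 in AMPK KO and 0 in both interactions. The torin1 count in AMPK KO was 3 with only the compared libraries fitted, and DESeq2 called 1 of 2 torin1 interactions. Leaving out 1 library gave 1 to 3 calls with MK-8722 in WT, 0 in AMPK KO and 1 to 2 in the interaction (2 without WT DMSO replicate 3), and 5 to 10, 5 to 6 and 2 to 3 calls with torin1. Without WT DMSO replicate 4 the torin1 count in WT was 5.

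The log2 ratio of the gamma C sum between the lines, -0.25, was -0.13 with library size alone, and that of gamma B, -0.66, was -0.53 in TPM. No direction reversed under any alternative run, and 22 members without overlap became 19 with library size alone and 18 in TPM. The cause of these changes was not tested.

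Same-passage libraries of a genotype deviated together in 19 of 24 pairs at a correlation over 0.1 (median 0.22, lowest -0.02). Libraries of other passages of the same genotype did so in 5 of 72 (median -0.08). Same-numbered libraries did so in 10 of 60 (median 0.02), so replicate numbers were not taken as pairs. The main fit had no term for passage, although same-passage libraries varied together, and it called fewer members than a fit with one. A replicate block by passage gave 3, 1 and 3 calls with MK-8722 in WT, in AMPK KO and in the interaction, and 10, 8 and 3 with torin1. A replicate block by number gave 1, 0 and 1 with MK-8722 and 8, 7 and 2 with torin1. Counting error limits the values of the many members with few counts.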
